A study of Rattus norvegicus with 6 samples.

Results

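FOXO1, FOXO3 and FOXO4 are forkhead transcription factors that switch on genes of growth arrest, stress resistance, autophagy and insulin feedback. When growth factors activate PI3K, the kinase AKT phosphorylates FOXO proteins, Ywha proteins bind them and they leave the nucleus, and when this signal is low they return to the DNA. In neural stem cells FOXO factors are known for keeping cells quiescent, and in gliomas the PI3K pathway that restrains them is often overactive. The genes described here are these 3 factors and 7 of their known targets. They come from a list of names that was chosen with earlier results of these data known. The targets are the redox regulator Txnip, the ubiquitin ligase subunit Fbxo32, the sestrins Sesn1 and Sesn3, the insulin receptor substrate Irs2, the PI3K inhibitor Pik3ip1 and the cyclin Ccng2. All 10 of the listed members were found among the 12121 genes of the files, which hold genes that passed a filter on low values made by the authors.

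The RNA-seq data compare 3 libraries of C6 rat glioma cells that overexpress Aqp1 (C6-AQP1) with 3 libraries of C6 control cells. C6 is an established line, and Aqp1 encodes a membrane channel for water. According to the methods, AQP1 was introduced in a pCDH vector that holds a CMV promoter, a green fluorescent protein and a puromycin resistance gene, and the cells were grown in DMEM with fetal bovine serum. A control line named after the vector (C6-Pcdh) appears in the study's other assays, but the labels and the description of the RNA-seq call the sequenced cells only control or C6, so whether they carried the empty vector is not stated. Nor do the sources used here give whether C6-AQP1 was 1 clone or whether the libraries stand for separate cultures. The p-values therefore rest on a spread between libraries that may be technical.

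The expected counts summed to between 22728106 and 52725877 in C6 control libraries and between 19054251 and 41565610 in C6-AQP1 libraries, with replicate 1 the shallowest in both groups. Aqp1 itself had 347, 352 and 349 normalized CPM in C6 control and 1052, 1064 and 1057 in C6-AQP1. Normalized CPM, the unit of all levels given here, are counts relative to the library total after TMM scaling, which corrects for differences in composition between libraries. Of 11 markers of astrocytes and glial precursors, 8 were listed and all 8 rose, against 40.8% of all genes. Their sum went from 5381 to 5505 CPM in the control libraries to 7580 to 7851 in the C6-AQP1 libraries. Within this sum, Vim alone went from a mean of 2001 to 3249 CPM. The log2 fold changes ran from 0.07 for Cspg4, whose groups overlapped, to 3.57 for Gfap. Sox9, Aldh1l1 and Fabp7 were not found by symbol among the genes of the filtered files. Of the 5 markers each of neurons, endothelium and fibroblasts, 3, 1 and 3 were listed, with sums of at most 263, 8.55 and 51.2 CPM. Of these, 2, 1 and 3 rose in C6-AQP1, and so few markers cannot show a direction. None of the 5 markers of microglia and leukocytes was found by symbol in the filtered files, which does not show that the cells lacked them. Mitochondrial transcripts made up 3.05 to 3.16% of the counts in the controls and 3.68 to 3.90% in C6-AQP1, and genes with Rpl or Rps symbols, which are mostly those of ribosomal proteins, 3.11 to 3.22% and 1.79 to 1.93%, without overlap between the groups. The part of these shifts in the members' values was not tested, and in bulk RNA fewer cells of a type and less RNA per cell cannot be told apart.

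All 3 FOXO factors rose in C6-AQP1 cells, each by less than the 2-fold threshold for a DEG. Of the 7 targets, 6 rose too, led by Fbxo32 and Txnip, which were 4.74-fold and 4.59-fold higher, while Irs2 fell by 0.12 on the log2 scale. In total, 9 of the 10 members rose and 1 fell, against 40.8% of all genes tested that rose and 40.7% that fell. Because the members were chosen with earlier results of these data known, counts of them are a description and not a test. A total of 4 members were DEGs, all of them upregulated (Txnip, Fbxo32, Sesn3 and Pik3ip1), against 9.74% of all genes. Downregulated DEGs made up 4.35% of all genes, and 0 members were among them in edgeR or in DESeq2, with Irs2 the 1 member that was lower at an unadjusted p under 0.05. The words rose and fell are used for an adjusted p under 0.05 in edgeR's quasi-likelihood test, which 81.5% of all genes passed, and a DEG also changed more than 2-fold. The libraries of both groups did not overlap for any of the 10 members, against 82.5% of all genes, 41.3% with C6-AQP1 higher and 41.3% with it lower.

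**Figure D1:**
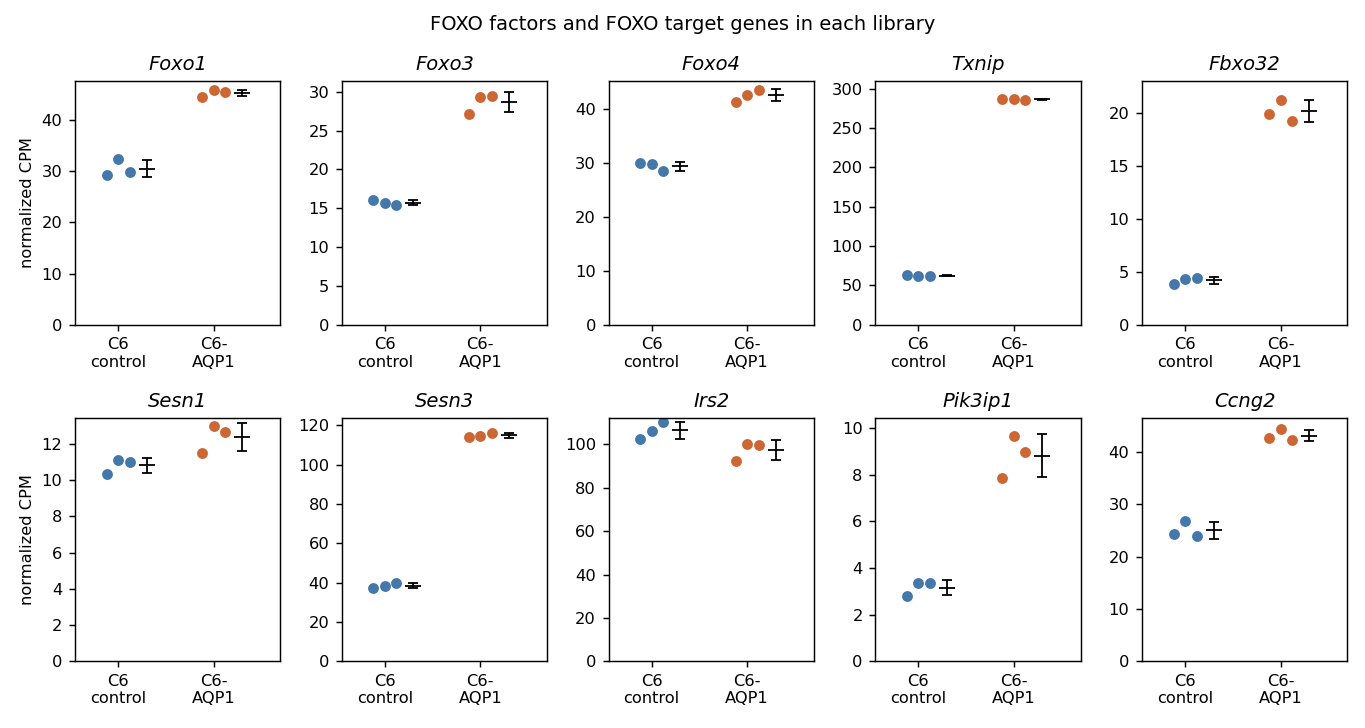
Normalized CPM of the 10 members, on linear axes that start at 0 and differ between panels. Points show single libraries, with mean and SD (n = 3) in black beside them. The groups do not overlap for any member, and C6-AQP1 lies higher in all panels but that of Irs2.

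Foxo4 (ENSRNOG00000033316), the factor named in the title of the series, had 30.1, 29.8 and 28.5 CPM in C6 control replicates 1, 2 and 3 and 41.4, 42.8 and 43.7 CPM in the C6-AQP1 replicates. The lowest C6-AQP1 library lay well above the highest control library. The log2 fold change was 0.54 ± 0.04 (SE, edgeR adjusted p = 7.7e-11).

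Foxo1 (ENSRNOG00000013397), which controls metabolic and growth arrest genes in many tissues, had 29.3, 32.3 and 29.8 CPM in the controls and 44.6, 45.8 and 45.4 CPM in C6-AQP1. These groups did not overlap either, and the log2 fold change of 0.57 ± 0.04 (SE, edgeR adjusted p = 7.1e-11) was close to that of Foxo4. Foxo3 (ENSRNOG00000000299), a factor of stress resistance and stem cell maintenance, went from 16.0, 15.7 and 15.4 CPM to 27.1, 29.3 and 29.5 CPM. All 3 C6-AQP1 libraries were high, with the shallow replicate 1 the lowest of them. Its log2 fold change was 0.88 ± 0.05 (SE, edgeR adjusted p = 2.0e-12). Foxo6 (ENSRNOG00000032639), the remaining and less studied factor of the family and not a member, had 1.66, 1.78 and 1.64 CPM in the controls and 4.25, 4.87 and 5.13 in C6-AQP1, a log2 fold change of 1.49 ± 0.14 (SE, edgeR adjusted p = 2.8e-09).

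Ratios of counts within a library do not depend on the scaling, so they show whether the factors moved alike. The ratio of Foxo4 to Foxo3 was 1.88, 1.90 and 1.85 in the controls and 1.53, 1.46 and 1.48 in C6-AQP1, lower by 1.26-fold without overlap. Foxo1 to Foxo3 went from 1.83, 2.06 and 1.94 to 1.64, 1.57 and 1.54, lower by 1.23-fold, again without overlap. Foxo4 to Foxo1 was 1.03, 0.922 and 0.957 against 0.930, 0.934 and 0.961, with overlapping groups. The exact two-sided permutation test gave p = 0.1 for the first pair of ratios, which is the smallest value that 3 libraries against 3 allow, and p = 0.7 for Foxo4 to Foxo1 (adjusted p = 0.12, 0.12 and 0.7 over the 6 ratios tested). In these libraries Foxo3 had the largest log2 fold change of the 3 factors, and the design cannot bring a single ratio under a p of 0.05.

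Txnip (ENSRNOG00000021201) encodes a protein that binds thioredoxin and limits glucose uptake, and it is a target of FOXO and of the glucose-sensing factors MondoA and ChREBP. It had 62.8, 62.1 and 62.2 CPM in the controls and 287, 287 and 285 CPM in C6-AQP1. The libraries of a group were nearly level, with an SD of 0.390 and 0.926 CPM. Its log2 fold change was 2.20 ± 0.02 (SE, edgeR adjusted p = 3.2e-25). Arrdc4, the alpha-arrestin that shares glucose control with Txnip, rose less, from 6.42, 5.97 and 5.48 to 9.88, 9.54 and 9.69 CPM (log2 fold change 0.71). The ratio of Txnip to Arrdc4 went from 9.79, 10.4 and 11.4 to 29.0, 30.0 and 29.4, so it was 2.81-fold higher in C6-AQP1 (p = 0.1, exact permutation test, two-sided). The log2 fold change of Txnip was also larger than those of the factors. Its ratio to Foxo3 went from 3.92, 3.96 and 4.04 to 10.6, 9.80 and 9.68 (p = 0.1, exact permutation test, two-sided).

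Fbxo32 (ENSRNOG00000006738) encodes atrogin-1, a ubiquitin ligase subunit known best from the FOXO response of wasting muscle. It was low in the controls, with 3.81, 4.35 and 4.42 CPM, and reached 20.0, 21.3 and 19.3 CPM in C6-AQP1. The lowest C6-AQP1 library was far above the highest control library, and the log2 fold change was 2.25 ± 0.08 (SE, edgeR adjusted p = 9.2e-17). Trim63, its usual companion in muscle, was not found by symbol in the filtered files. The nearest relative of Fbxo32, Fbxo25, did not pass the test, with a log2 fold change of 0.18 ± 0.15 (SE).

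The sestrins restrain mTORC1 and protect from oxidative damage, and Sesn3 is the member of the family most closely tied to FOXO. Sesn3 (ENSRNOG00000008173) had 37.4, 38.4 and 39.7 CPM in the controls and 114, 115 and 116 CPM in C6-AQP1. This was a log2 fold change of 1.57 ± 0.03 (SE, edgeR adjusted p = 6.5e-21). Sesn1 (ENSRNOG00000000302), also a target of p53, had 10.4, 11.1 and 11.0 CPM in the controls and 11.5, 13.0 and 12.6 CPM in C6-AQP1, so the groups lay next to each other. Its log2 fold change of 0.20 ± 0.07 (SE) passed the test with an adjusted p of 0.015. This call ended with DESeq2 (adjusted p = 0.0595) and without C6-AQP1 replicate 2 or 3 (0.0863 and 0.0509), with adjusted p between 0.00266 and 0.0863 over all alternatives. Sesn2, a sestrin induced by metabolic stress, had a log2 fold change of -0.07 ± 0.06 (SE, edgeR adjusted p = 0.25) and overlapping groups. The ratio of Sesn1 to Sesn3 fell from 0.277, 0.290 and 0.277 to 0.101, 0.114 and 0.109, which is 2.61-fold lower (p = 0.1, exact permutation test, two-sided).

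**Figure D2:**
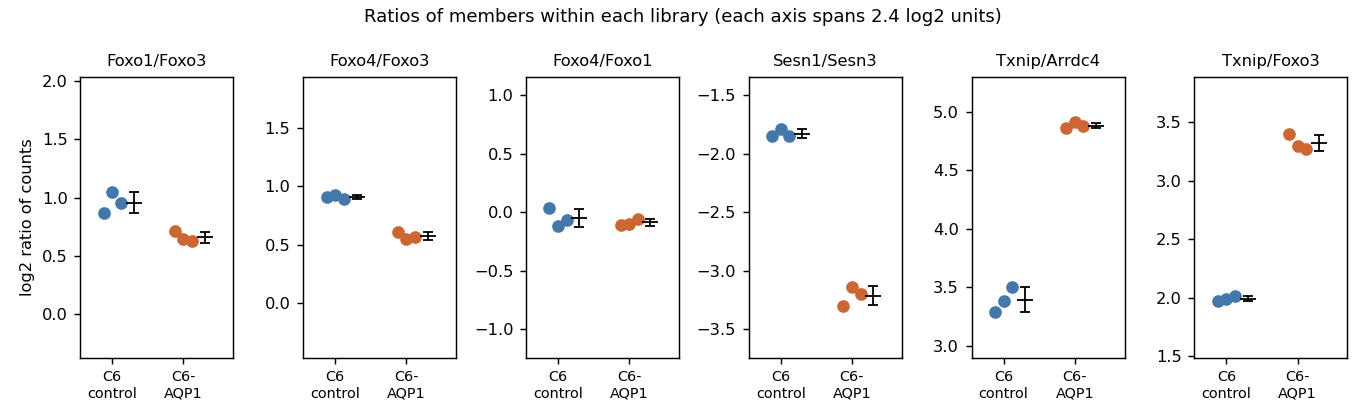
Log2 ratios of the counts of gene pairs within each library, with mean and SD (n = 3) in black beside the single libraries. The groups overlap for Foxo4 to Foxo1 alone, and the largest difference is that of Txnip to Arrdc4, 1.49 log2 units.

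Pik3ip1 (ENSRNOG00000018859), a membrane protein that binds PI3K and lowers its activity, had the lowest counts of the members. It had 2.78, 3.34 and 3.34 CPM in the controls, from 62 counts in replicate 1 to 173 in replicate 2, and 7.84, 9.66 and 8.96 CPM in C6-AQP1. The groups did not overlap, and the log2 fold change was 1.47 ± 0.11 (SE, edgeR adjusted p = 7.2e-11). Ccng2 (ENSRNOG00000002089), an unconventional cyclin that slows the cell cycle, had 24.4, 26.9 and 23.9 CPM in the controls and 42.7, 44.4 and 42.3 in C6-AQP1. Every C6-AQP1 library was higher, with a log2 fold change of 0.78 ± 0.05 (SE, edgeR adjusted p = 1.5e-12). Ccng1, a cyclin induced by p53, fell by 0.54 on the log2 scale, and Ccni had a log2 fold change of -0.06 whose call did not hold in 4 alternatives (adjusted p between 0.0108 and 0.85).

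Irs2 (ENSRNOG00000023509), an adaptor of the insulin and IGF1 receptors that FOXO proteins are known to induce, was the only member that did not rise. It had 103, 106 and 110 CPM in the controls and 92.2, 100.3 and 99.7 CPM in C6-AQP1, so the highest C6-AQP1 library lay just under the lowest control library. The log2 fold change was -0.12 ± 0.03 (SE, edgeR adjusted p = 0.0022). With library totals in place of TMM scaling the call was lost (adjusted p = 0.0508, with 5.9e-05 to 0.0508 over all alternatives). Irs1, the related adaptor, rose from 21.5, 24.0 and 25.1 CPM to 49.1, 54.9 and 55.1 CPM, a log2 fold change of 1.17.

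**Figure D3:**
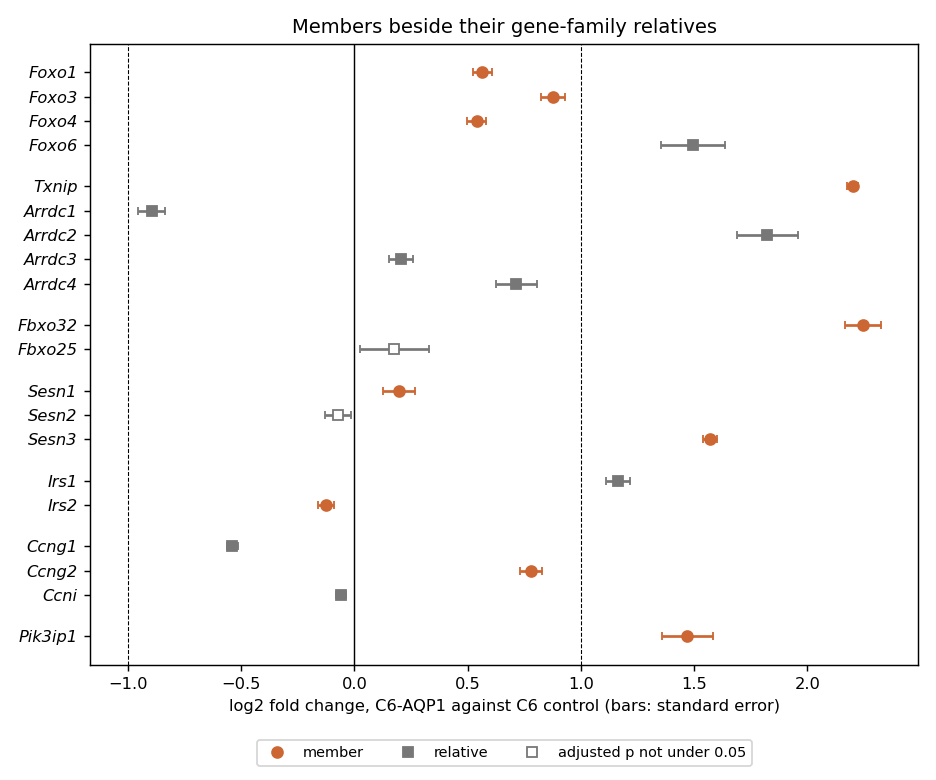
Log2 fold changes of the 10 members (orange circles) and of their relatives (grey squares), grouped by gene family, with standard errors as bars. Dashed lines mark a 2-fold change and open symbols an adjusted p that was not under 0.05. Sesn3 and Sesn1, Irs1 and Irs2, and Ccng2 and Ccng1 lie apart from each other.

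Promoter sequences of 6 of the 10 members (Foxo1, Foxo4, Sesn1, Sesn3, Pik3ip1 and Ccng2) were matched by symbol in RefSeq (GRCr8), a newer build than the rn6 of the counts. They were searched on both strands for GTAAACA, the long form of the FOXO recognition sequence, for TTGTTT, its shorter core, and for CACGTG, the E-box letters used by MondoA and ChREBP. A GTAAACA that is followed by A holds a TTGTTT on the other strand, so the first 2 motifs can overlap. In the 250 bases before the start, TTGTTT was found in 2 of the 6 members, against 17.9% of 27457 promoters and 11.7% of the 8636 that belong to genes tested here. GTAAACA (3.25% of all promoters) and CACGTG (5.79%) were found in none of the 6. A match is only a description of these letters, and its absence from this window says nothing of sites elsewhere.

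The pair with TTGTTT, Ccng2 and Sesn1, is shown with the motif in capitals (as AAACAA where it lies on the other strand), beside Sesn3, a DEG without a match, and Foxo4. Ccng2 and Sesn1 were chosen for printing after their matches were seen. All are 250 bases, 5′ to 3′ on the strand of the gene. Ccng2 (chr14:15097191-15097440, minus strand) holds a pair of matches side by side that begin 55 and 49 bases before the start. In Sesn1 (chr20:46948469-46948718, plus strand) the matches begin 168 and 33 bases before it. Sesn3 lies at chr8:19415177-19415426 and Foxo4 at chrX:70425313-70425562, both on the plus strand.
Ccng2: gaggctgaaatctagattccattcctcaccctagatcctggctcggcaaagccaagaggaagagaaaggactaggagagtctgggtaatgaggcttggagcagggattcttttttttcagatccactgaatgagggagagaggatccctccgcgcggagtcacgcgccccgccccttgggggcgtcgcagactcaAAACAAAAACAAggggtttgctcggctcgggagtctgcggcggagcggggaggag
Sesn1: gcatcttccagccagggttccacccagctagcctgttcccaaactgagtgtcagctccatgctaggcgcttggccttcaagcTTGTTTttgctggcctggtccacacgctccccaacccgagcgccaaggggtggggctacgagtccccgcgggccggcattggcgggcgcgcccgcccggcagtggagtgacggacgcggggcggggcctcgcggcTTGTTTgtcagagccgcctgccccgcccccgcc
Sesn3: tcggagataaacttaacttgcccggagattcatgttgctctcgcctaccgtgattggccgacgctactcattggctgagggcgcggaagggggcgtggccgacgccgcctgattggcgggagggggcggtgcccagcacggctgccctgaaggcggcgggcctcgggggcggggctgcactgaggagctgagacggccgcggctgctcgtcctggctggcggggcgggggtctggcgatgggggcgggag
Foxo4: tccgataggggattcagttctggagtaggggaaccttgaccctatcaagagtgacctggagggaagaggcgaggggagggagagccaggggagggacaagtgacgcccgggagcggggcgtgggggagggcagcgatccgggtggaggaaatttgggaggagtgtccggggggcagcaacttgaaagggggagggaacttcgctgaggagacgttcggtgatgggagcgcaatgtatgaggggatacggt

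With the 50 bases after the start included, Pik3ip1 gained a GTAAACA on the minus strand that begins at the first transcribed base. These 30 bases (chr14:82428303-82428332, plus strand) run from 12 bases before the start, with the match in capitals as TGTTTAC.
Pik3ip1: ctaaagagaggcTGTTTACcagaagagcat
In this window of 300 bases, 3.76% of all promoters held GTAAACA and 20.3% held TTGTTT.

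Upstream of FOXO, 19 genes of growth factor receptors, PI3K and AKT were measured. Of these 9 rose, 5 fell and 5 did not pass, that is 47.4% and 26.3% against 40.8% and 40.7% of all genes, with a median log2 fold change of 0.07 against 0.0010 over all genes. Pik3r1, the main regulatory subunit of PI3K, rose from 65.5, 61.8 and 63.1 CPM to 132, 135 and 138 CPM. It was a DEG (log2 fold change 1.10), as were Irs1 and the mTORC2 subunit Rictor (1.03), and Pik3r3, a further regulatory subunit, had 0.97. The catalytic subunit gene Pik3ca and the kinases Akt1 and Akt2 fell, with log2 fold changes of -0.18, -0.45 and -0.38.

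Among phosphatases that oppose PI3K and AKT, 7 of 8 measured genes rose and 1 fell, with a median of 0.34. Over all genes 40.8% rose and 40.7% fell, and the list is short. The gene that fell was Ppp2ca, with a log2 fold change of -0.30. Phlpp1, which removes phosphate from AKT, rose from 68.9, 69.9 and 68.6 CPM to 166, 169 and 170.5 CPM (log2 fold change 1.29 ± 0.03, SE, edgeR adjusted p = 7.6e-21). Phlpp2, its paralog, and the phosphoinositide phosphatases Inpp4a and Inpp5e had 0.84, 0.82 and 0.38.

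In the list of genes that act on FOXO proteins, 9 of 25 rose and 16 fell, with a median of -0.37. That is 36% and 64%, against 40.8% and 40.7% of all genes. All 6 listed Ywha genes, whose products hold phosphorylated FOXO in the cytoplasm, fell, with log2 fold changes from -0.73 for Ywhah and -0.68 for Ywhaz to -0.17 for Ywhag. Xpo1, the exportin that carries FOXO out of the nucleus, fell by 0.52 on the log2 scale. The acetyltransferases Crebbp and Ep300 and the methyltransferase Setd7 rose (0.62, 0.66 and 0.69). Other genes of the list went both ways. Prmt1, Stk3, Mapk8, Mapk9 and Sirt1 fell (-0.68, -0.45, -0.43, -0.40 and -0.19), while Sirt2 and Stk4 rose (0.43 and 0.17). Cdk1, which is also a gene of mitosis, was the largest fall with -1.35. RNA levels do not show where FOXO proteins were or how they were modified.

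**Figure D4:**
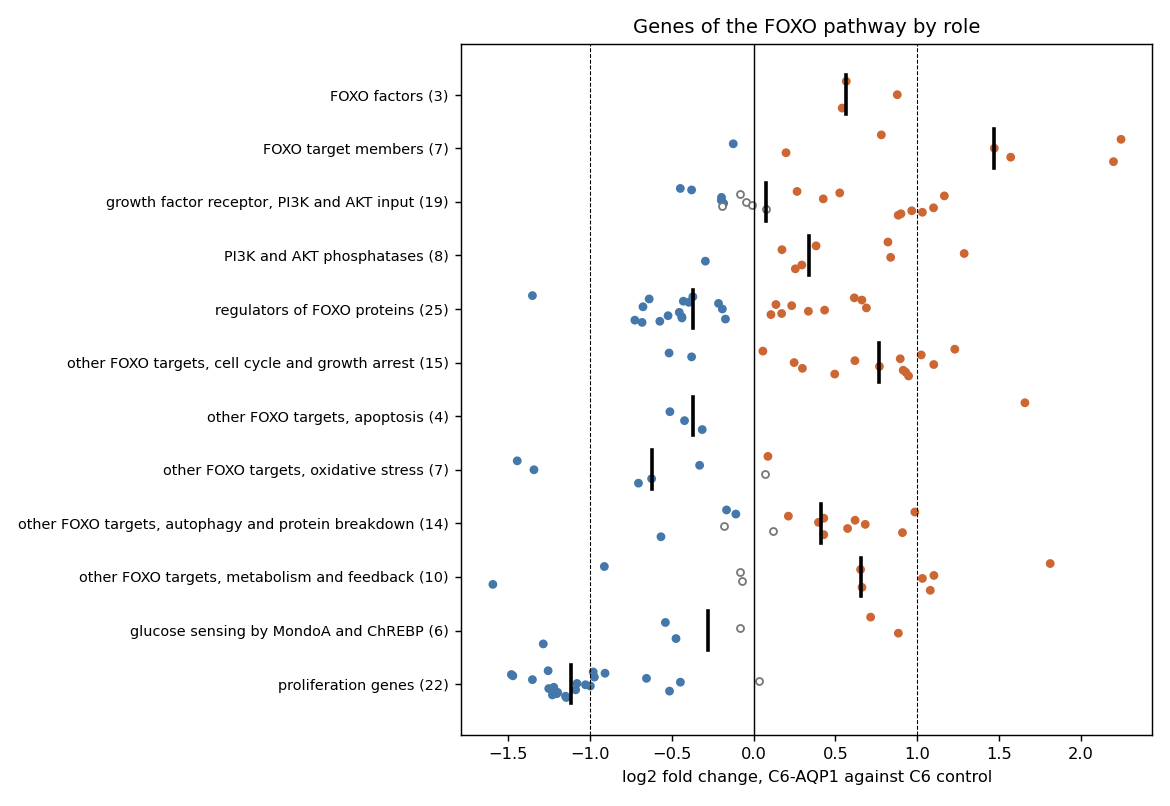
Log2 fold changes of the genes of the FOXO pathway by role, with the number of measured genes in brackets. Each point is a gene, orange if it rose, blue if it fell and open if its adjusted p was not under 0.05, and the black bar is the median of the list. Target genes of growth arrest lie mostly to the right of 0, oxidative stress and proliferation genes mostly to the left.

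Beyond the members, 50 further FOXO targets were measured, of which 30 rose, 15 fell and 5 did not pass, with a median log2 fold change of 0.35. Over all genes 40.8% rose and 40.7% fell. Upregulated DEGs among the 50 numbered 8 and downregulated DEGs 3, against 9.74% and 4.35% of all genes. The direction of most calls differed between groups of targets, which held 4 to 15 measured genes each.

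Among targets of cell cycle and growth arrest, 13 of 15 rose and 2 fell (median 0.77), against 40.8% and 40.7% of all genes. Cdkn1b, the CDK inhibitor p27, had 61.3, 60.7 and 58.6 CPM in the controls and 117, 110.5 and 109 CPM in C6-AQP1, a log2 fold change of 0.90. The transcriptional repressor Bcl6 and the growth arrest gene Gadd45b were DEGs, with 1.23 and 1.10, and the antiproliferative Tob1 had 0.95. Rbl2, the pocket protein p130 of resting cells, rose with 0.50. Cdkn1a, the CDK inhibitor p21, fell by 0.38 on the log2 scale. Of the D cyclins, which FOXO proteins are known to repress, Ccnd1 fell by 0.52 and Ccnd2 rose with 1.02.

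Proliferation genes moved the other way. Of 22 measured, 21 fell in C6-AQP1 and 14 were downregulated DEGs (median -1.12), against 40.7% and 4.35% of all genes. E2f2 did not pass the test (0.03). Ccna2, Ccnb1 and Cdk1, which drive cells through S phase and mitosis, had log2 fold changes of -1.48, -1.47 and -1.35, and Aurka, a mitotic kinase, had -1.26. The part of this shift in the levels of the FOXO targets was not tested.

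Of 4 measured targets of apoptosis, 1 rose and 3 fell (median -0.37), against 40.8% and 40.7% of all genes. So short a list cannot show a direction. Bcl2l11, which encodes the death protein BIM, had 13.2, 11.9 and 12.7 CPM in the controls and 41.1, 39.8 and 38.1 in C6-AQP1 (log2 fold change 1.66 ± 0.05, SE, edgeR adjusted p = 2.3e-17). Bnip3, of mitophagy and cell death, Tradd, an adaptor of the TNF receptor, and Trib1 fell, with -0.51, -0.42 and -0.31.

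Targets of oxidative stress fell in 5 of 7 cases and rose in 1 (median -0.62). Over all genes 40.7% fell and 40.8% rose, and the list is short. Gpx1, a glutathione peroxidase, and Prdx5, a peroxiredoxin, were downregulated DEGs, with log2 fold changes of -1.45 and -1.34. Txn2 and Txnrd2, the thioredoxin system of mitochondria, had -0.62 and -0.70. Sod2, the best known FOXO target of this group, did not pass the test (0.07), and catalase (Cat) had 0.09. Txn1, the cytosolic thioredoxin that TXNIP binds, was lower too, with 23.9, 22.6 and 22.5 CPM in the controls and 14.0, 7.92 and 7.87 in C6-AQP1. Here C6-AQP1 replicate 1 lay apart, and the log2 fold change was -1.29 with it and -1.53 without it. Txn1 has processed pseudogenes that may share its reads.

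For autophagy and protein breakdown, 9 of 14 targets rose, 3 fell and 2 did not pass (median 0.41). That is 64.3% and 21.4%, against 40.8% and 40.7% of all genes. None was past the DEG threshold, against 14.1% of all genes. Atg14, Ulk1 and Gabarapl1, which start or extend the autophagosome, had log2 fold changes of 0.99, 0.91 and 0.68, and Fbxo21, an F-box gene induced in muscle wasting, had 0.62. Among targets of metabolism and feedback, 6 of 10 rose, 2 fell and 2 did not pass (median 0.66). That is 60% and 20%, against the same shares of all genes, and both lists are short. Ddit4, an inhibitor of mTORC1, rose from 21.1, 19.6 and 20.9 CPM to 69.7, 70.9 and 74.6 CPM (1.81), Pdk4, which closes the entry of pyruvate into the mitochondrion, had 1.10 and Tsc22d3 had 1.08. Trib3, a pseudokinase of the ATF4 response that binds AKT, was the largest fall, with -1.59.

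Among genes of glucose sensing, 2 of 6 rose, 3 fell and 1 did not pass (median -0.28), against 40.8% and 40.7% of all genes that rose and fell, a difference that so short a list cannot resolve. Mlxip, which encodes MondoA, had 0.88, while Klf10, a target of ChREBP, fell by 0.54 on the log2 scale. The other alpha-arrestins beside Arrdc4 went both ways. Arrdc2 rose from 2.47, 2.24 and 3.30 CPM to 9.27, 8.70 and 10.6 CPM (log2 fold change 1.82), Arrdc3 had 0.21 and Arrdc1 fell by 0.89.

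The genes whose levels followed a FOXO factor most closely over the 6 libraries were found by the Euclidean distance between centred log2 CPM profiles, among 10489 genes with at least 50 counts in every library. Those nearest to Foxo4 were Shprh, Zfp672 and Med12l, at distances of 0.033, 0.036 and 0.043. Rslcan18, Ankrd50 and Mknk1 were nearest to Foxo1 (0.046, 0.050 and 0.066), and Gprasp2, Slit2 and Mast3 to Foxo3 (0.058, 0.063 and 0.064). With 2 groups this measure mostly picks genes of the same fold change.

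In RefSeq, Foxo3 and Sesn1 lie on the same chromosome with a single protein-coding gene, Armc2, between them. Armc2 had a log2 fold change of 1.41, against 0.88 for Foxo3 and 0.20 for Sesn1, and Cep57l1 on the other side of Sesn1 had -0.69.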

How the data were processed

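The methods and the submitters' processing notes name FastQC 0.11.2, Trimmomatic 0.36, STAR 2.5.1b with the rn6 genome and RSEM 1.2.29. The deposited values are RSEM expected counts without normalization for 12121 genes, after the authors' filter for a mean TPM above 1 in a group. The symbol follows the identifier in each gene name, and the gene annotation was not given in the sources used here.

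Expected counts were rounded, scaled by TMM in edgeR 4.0.16 (R 4.3.3) and compared by the robust quasi-likelihood test without covariates, with Benjamini-Hochberg adjustment over all genes. The DEG thresholds of the methods were kept (adjusted p under 0.05, log2 fold change beyond 1 in either direction). The standard error was taken from the fold change and the test statistic. Ratios were tested by exact permutation of the 6 libraries. No gene lengths were used, so levels are not compared between genes. The edgeR and DESeq2 (1.42.0) fits were tested on simulated data. Replicates differed by more than sampling noise (chi-square per degree of freedom 2.15 to 4.29), so none was treated as a library deposited more than once, which does not show that they came from separate cultures. The common coefficient of biological variation was 2.97%.

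The members, lists and tests were chosen with earlier results of these data known. Named genes are all members, up to 4 genes per list with the largest change (given 50 or more counts throughout the higher group), all relatives of the members, the 3 genes nearest to each factor, and Aqp1. Further members of lists were named after their values were seen (Pik3ca, Akt1, Akt2, Ppp2ca, Ywhag, Xpo1, Crebbp, Ep300, Prmt1, Stk3, Stk4, Mapk8 and Mapk9). So were Sirt1, Sirt2, Cdkn1a, Cdkn1b, Rbl2, Ccnd1, E2f2, Sod2, Cat, Gfap, Vim, Cspg4, Armc2 and Cep57l1. The genes nearest to Sesn3, Txnip and Fbxo32 were also named in this way. Alternatives were DESeq2, other scaling, a low-count filter, unrounded counts, a replicate block and leaving out libraries.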

Additional observations from a re-analysis of the deposited data

How the results depend on the processing

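The upregulated DEGs among the members numbered 4 in every one of 13 alternatives, and 8 or 9 members rose. The fall of Irs2 was lost with library totals alone, leaving 0 members that fell. Over the 134 measured genes of the pathway lists without the members, 59 rose and 63 fell, with 58 to 62 and 61 to 65 over the alternatives. That is 44.0% and 47.0%, against 40.8% and 40.7% of all genes. These lists include the proliferation genes, of which 21 of 22 fell. Over 67 named genes, 8 of 871 alternative fits lost a call, all of Sesn1, Irs2 or Ccni, and none changed sign. The log2 ratio of Foxo4 to Foxo1, -0.040 in C6-AQP1 relative to control, had no stable sign, ranging from -0.075 to 0.0035 when 1 library was left out, and it was 0.0035 without C6 control replicate 1. The cause was not tested.

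Deviations from the group means correlated weakly between same-numbered libraries (0.17, -0.047 and 0.19 for numbers 1, 2 and 3, over 10489 genes). C6 control replicates 1 and 3 each correlated best with the C6-AQP1 library of their own number. C6 control replicate 2 correlated best with C6-AQP1 replicate 1 (0.034), so whether the numbers mark pairs was not settled. With the number as a replicate block, 9 members rose, 1 fell and 4 were DEGs, and over all genes 5006 rose and 4976 fell in place of 4948 and 4930. As differences between same-numbered libraries, the ratios had exact p-values of at least 0.25, the smallest that 3 pairs allow.

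Of the 10 members, Pik3ip1 had the lowest counts, with 62 in its smallest library. Foxo6, Arrdc2 and Fbxo25, which are not members, had fewer (37, 55 and 60). Without scaling factors the median of all genes shifted by 0.054 on the log2 scale.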

Other observations

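The profile of Sesn3 over the 6 libraries was close to that of the overexpressed gene itself. Aqp1 was the third nearest of 10489 genes to Sesn3, at a distance of 0.066 in centred log2 CPM, after Ntrk2, a neurotrophin receptor (0.044), and Gria4, a glutamate receptor subunit (0.059). The log2 fold changes of Sesn3 and Aqp1 were 1.57 and 1.60. With 2 groups the distance mostly picks genes of like fold change, so it cannot show a link between Sesn3 and Aqp1. The closeness was seen after the values were known and was not tested.

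The nearest genes to Txnip were Fgl2, Aox1 and Nrbp2, at distances of 0.051, 0.093 and 0.10, and those to Fbxo32 were Nrbp2, Col3a1 and Col27a1, at 0.15, 0.15 and 0.15. With 2 groups this measure mostly picks genes of the same fold change.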
